A study of Homo sapiens with 8 samples.

Results

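METTL3 knockdown was compared with control knockdown inside senescent cells, gene by gene, for nascent transcription. The comparison takes the 2 libraries of senescent cells that carried shMETTL3 against the 2 libraries of senescent cells that carried shControl, of 8 libraries in all. Every gene row outside the ribosomal RNA rows belongs to it, which is 27924 of 27945 rows, with 21 ribosomal RNA rows set apart. Of the 27924 genes, 12823 had enough counts to be tested and 15101 did not, and 6423 of these had no count in any library.

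The cells were IMR90, primary human diploid fibroblasts from embryonic lung, kept at low oxygen. Both groups carried ER:RAS, a fusion of the estrogen receptor with mutant H-RAS that 4-hydroxytamoxifen switches on, and both were senescent when collected. They differed in the lentiviral short hairpin RNA, which was directed at METTL3 in one group and was a control hairpin in the other, with a single hairpin per target. The other groups of the series were control cells, labelled without a hairpin, and senescent cells with shMETTL14, each with 2 libraries. The study describes its fastGRO-seq replicates as biologically independent experiments, while the labels do not say whether the 2 libraries of a group came from separate cultures. The p-values measure the spread between these libraries.

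METTL3 carries the catalytic activity of the protein complex that writes N6-methyladenosine (m6A) on RNA, and METTL14 is its partner in the core of that complex. Oncogene-induced senescence is a lasting arrest of the cell cycle in which cells also switch on the senescence-associated secretory phenotype (SASP), a mixture of cytokines, chemokines, growth factors and proteases driven largely by NF-kappaB and C/EBP factors. In fastGRO-seq, RNA polymerases that are already engaged extend their transcripts in isolated nuclei with a thiol-tagged nucleotide, and the tagged RNA is captured and sequenced. The counts therefore reflect polymerases along the whole gene, introns included, and a long gene collects more counts than a short one at the same density.

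The libraries held 14897360 to 20306299 counts, of which 86.2% to 92.5% lay in ribosomal RNA rows, and 1513930 to 2048475 counts lay on all other genes. The share in ribosomal RNA rows was lower with shMETTL3 (88.4% and 86.2%) than with shControl (92.5% and 92.1%), and its part in the results below was not tested. The cells had counts at all 14 fibroblast markers listed, with 12 of them at 30 counts or more in each of the 4 libraries. Of 12 epithelial markers 7 had no count in the 4 libraries, EPCAM, KRT5 and KRT19 among them. CDH5 of 10 endothelial markers and CD3E and TYROBP, among 10 immune markers, also had none. The summed normalized counts of the fibroblast markers were 32990 and 34617 with shControl and 37400 and 32335 with shMETTL3, so these groups overlapped. FN1 weighed most in these sums, averaging 12585 counts. By the test described below, 3 of the 14 fibroblast markers were lower and 3 higher with shMETTL3. The sums were 35.6 to 61.5 and 25.6 for the epithelial markers, 71.2 to 79.2 and 70.8 to 84.5 for the endothelial markers, and 62.3 to 81.6 and 37.98 to 53.4 for the immune markers, in shControl and shMETTL3 cells, respectively. The epithelial and immune sums were lower in both shMETTL3 libraries than in either shControl library. The marker with most counts was KRT18 in the first, averaging 16.25 counts with 7 of 12 markers at 0, and CD68 in the second, averaging 43.25 counts and the only 1 of 10 to be tested. Their part in the results was not tested. Fewer cells of a type and less RNA per cell cannot be told apart in such bulk samples.

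METTL3 itself (chr14:21966275-21979517, hg19) had 77 and 47 counts with shControl and 16 and 19 counts with shMETTL3, so the groups did not overlap. Its fold change was -2.04 on the log2 scale, with a standard error (SE) of 0.31 (adjusted p = 1.79e-05, edgeR's quasi-likelihood test with Benjamini-Hochberg adjustment over all rows tested, which is the test behind every adjusted p given here). METTL14 counts were 24 and 28 with shControl and 41 and 48 with shMETTL3, a log2 difference of 0.56 that did not pass the threshold of 0.05 (adjusted p = 0.176). Among 8 genes of the methyltransferase complex, METTL3 and RBM15B were the only members that passed the test. Under scaling by library size alone, 1 member was lower, METTL3, and 4 were higher. RBM15B, an RNA-binding adaptor of the complex, fell from 47 and 44 counts to 25 and 17 (log2 -1.33, adjusted p = 0.00157), and 30.7% of its row overlaps the row of DCAF1, whose reads it shares. Of 14 readers and erasers of m6A, YTHDF1 was lower, and YTHDC2, YTHDF3 and the demethylase FTO were higher. With gene length taken into account, as described below, YTHDC2 and YTHDF3 passed the test and YTHDF1 and FTO did not. The number of the list called higher was 1 without shControl replicate 2, and DESeq2 called none lower.

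Of the 12823 genes tested, 1418 (11.1%) were lower and 1573 (12.3%) were higher with shMETTL3 at an adjusted p below 0.05, and 688 and 595 of these differed by 1 or more on the log2 scale. The number of calls depended on single libraries. Leaving out shControl replicate 1 gave 836 lower and 888 higher, leaving out shControl replicate 2 gave 707 and 769, and leaving out shMETTL3 replicate 1 gave 2044 and 1929. Each fold change sets a gene against the rest of its own library, and the added Drosophila RNA was left out, so a global rise or fall is invisible in these values. MMP1 and WTAPP1, which overlap on opposite strands, had 4695 and 4720 counts in shMETTL3 replicate 1, and reads of overlapping genes were therefore treated as shared. Besides the overlaps given with single genes, other rows cover 82.1% of the MALAT1 row, 21.8% of HMGA2 and 12.2% of NTN4. Scaling by library size alone, ribosomal RNA included, raised the median of all genes from -0.03 to 0.58 on the log2 scale. Of the 39 gene lists compared, 21 had a median below 0, and only chemokines, mitotic genes and interleukins kept it under that scaling. Their medians were then -2.28, -0.68 and -0.08, in this order, so that of the interleukins lay near 0. The counts given for each list stand beside the same shares over all genes tested, 11.1% lower and 12.3% higher.

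The 12 largest falls among genes averaging 100 counts or more over the 4 libraries were led by secreted proteins. MMP3 (stromelysin-1, a matrix-degrading protease, chr11:102706528-102714420) had 5581 and 5385 counts in shControl cells and 179 and 173 in shMETTL3 cells, a normalized count of 6296 ± 428 against 174 ± 13.7 (SD, n = 2). That is a 36.2-fold fall (log2 -5.18, SE 0.16, adjusted p = 2.24e-18), and 12.3% of its row overlaps WTAPP1. Its neighbour MMP10, stromelysin-2, went from 233 and 223 counts to 12 and 4 (32.6-fold lower, adjusted p = 4.65e-12). Control cells had 2 and 3 counts at MMP3 and none at MMP10. The shMETTL3 libraries thus stood between the control cells and the shControl libraries at both genes.

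CEMIP, a protein needed to break down hyaluronan, was the only one of the 12 that control cells transcribed more than senescent cells did. It had 865 and 868 counts in control cells, 218 and 282 with shControl and 25 and 17 with shMETTL3 (log2 -3.78, SE 0.26, adjusted p = 3.62e-11). SERPINB2, an inhibitor of urokinase, fell from 1617 and 1498 counts to 246 and 261 (7.15-fold, adjusted p = 2.71e-13). PDE3A, a phosphodiesterase that hydrolyses cyclic AMP, fell from 224 and 186 counts to 22 and 62, with replicate 2 higher than replicate 1. PDE3A is 315 kb long and CEMIP 172 kb, whereas the other 10 rows are 1.91 to 16.2 kb long. The remaining genes of the 12 were the chemokines CXCL1, CXCL3, CXCL5 and CXCL8 and the cytokines IL1B, IL11 and CSF3.

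**Figure D1:**
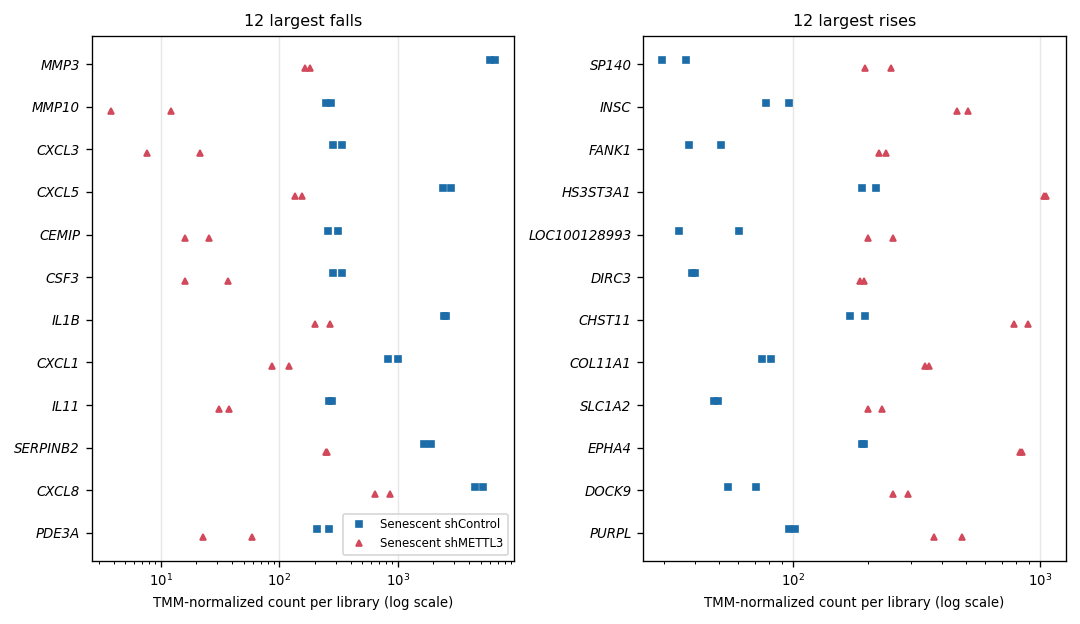
TMM-normalized counts (log axis) of the 12 largest falls (left) and the 12 largest rises (right) in the 2 senescent shControl libraries (squares) and the 2 senescent shMETTL3 libraries (triangles), with 1 point per library. In all 24 genes both triangles lie on one side of both squares, and the distance is widest for MMP3 and MMP10.

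Promoter sequences of the chemokine genes are shown because these genes fell together and because NF-kappaB, the main activator of chemokine genes in the SASP, binds a known motif. The windows are the 150 bases before the RefSeq start site, taken from the build GRCh38.p14, which differs from the hg19 build of the counts. Capitals mark matches to the 10-base NF-kappaB consensus or to the AP-1 motif TGANTCA on either strand. Only exact matches are marked, so a near match to the consensus stays in lower case, as does tggaatttcc in the CXCL8 window. In 4 of the 6 windows the capitals span 11 bases, because overlapping matches lie on opposite strands.
CXCL1 (chr4:73869243-73869392, plus strand): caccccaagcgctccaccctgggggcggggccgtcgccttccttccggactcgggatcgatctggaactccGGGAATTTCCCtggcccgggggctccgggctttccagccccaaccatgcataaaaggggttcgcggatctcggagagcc
CXCL3 (chr4:74038690-74038839, minus strand): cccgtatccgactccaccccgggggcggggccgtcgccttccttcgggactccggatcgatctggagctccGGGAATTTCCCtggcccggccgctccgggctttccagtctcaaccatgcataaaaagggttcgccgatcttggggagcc
CXCL5 (chr4:73998678-73998827, minus strand): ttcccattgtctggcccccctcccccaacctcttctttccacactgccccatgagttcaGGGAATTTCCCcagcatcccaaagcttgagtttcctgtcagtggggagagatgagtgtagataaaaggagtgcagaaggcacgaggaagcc
CXCL6 (chr4:73836528-73836677, plus strand): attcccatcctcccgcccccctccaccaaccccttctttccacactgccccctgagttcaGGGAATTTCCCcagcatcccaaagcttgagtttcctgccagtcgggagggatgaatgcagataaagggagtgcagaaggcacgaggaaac
CXCL8 (chr4:73740419-73740568, plus strand): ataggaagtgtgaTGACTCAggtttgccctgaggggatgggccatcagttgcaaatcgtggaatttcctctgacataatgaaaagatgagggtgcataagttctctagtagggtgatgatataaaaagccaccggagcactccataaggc
CCL20 (chr2:227813692-227813841, plus strand): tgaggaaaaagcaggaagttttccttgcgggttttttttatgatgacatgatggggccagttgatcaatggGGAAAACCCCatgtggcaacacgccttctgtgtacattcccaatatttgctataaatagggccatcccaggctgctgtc

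In the 250 bases before the start site, 7 of the 9 tested chemokine genes with a RefSeq promoter held an NF-kappaB match, against 5.21% of all 35116 promoters and 7.98% of the promoters of tested genes. The TGANTCA motif was in 5 of 10 promoters matched among the 12 largest falls, against 6.57% of all promoters, and in 1 of 10 among the 12 largest rises. These matches describe letters in a window and say nothing of binding. They are given as counts with no test.

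All 10 chemokine genes tested were lower with shMETTL3, of 25 listed. The other 15 chemokine genes had 0 to 6 counts summed over the 4 libraries and did not pass the filter. In 9 of the 10 that passed, both shControl libraries were above both control libraries, and CCL2 was the exception. Genes that pass through the group where they are high tend to be lower in the other, so 10 of 10 is not read against the 11.1% of all genes called lower. With the 4 libraries compared 9 were tested, and with 10 counts required in every library 1 was, and all of these were lower. CXCL5, a neutrophil attractant, went from 2402 and 2164 counts to 132 and 164 (17.99-fold lower, log2 -4.17, SE 0.21). CXCL8, or interleukin-8, went from 4396 and 4004 counts to 632 and 905 (6.40-fold lower, log2 -2.68, SE 0.15). Both remained above the 38 and 41 counts of CXCL8 and the 6 and 5 counts of CXCL5 in control cells.

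CXCL1 and CXCL3, close relatives of CXCL5, fell to 119 and 91 counts from 844 and 746 and to 21 and 8 counts from 284 and 254. The other chemokine genes, named after their values were seen, were CXCL2, CXCL6, CXCL10, CCL2, CCL3 and CCL20, with log2 fold changes from -3.17 (CXCL6) to -1.55 (CCL2). The CXCL10 row lies within that of ART3. CCL20, which attracts CCR6-bearing lymphocytes, had 104 and 99 counts in shControl cells and 30 and 37 in shMETTL3 cells. CCL3 rested on few counts, 11 and 6 against 2 and 0, a ratio of 9.88 with a 95% counting interval of 2.35 to 88.2. With one library left out, 7 to 10 of these 10 genes were still called lower, with the fewest without shMETTL3 replicate 2, and DESeq2 called 7.

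**Figure D2:**
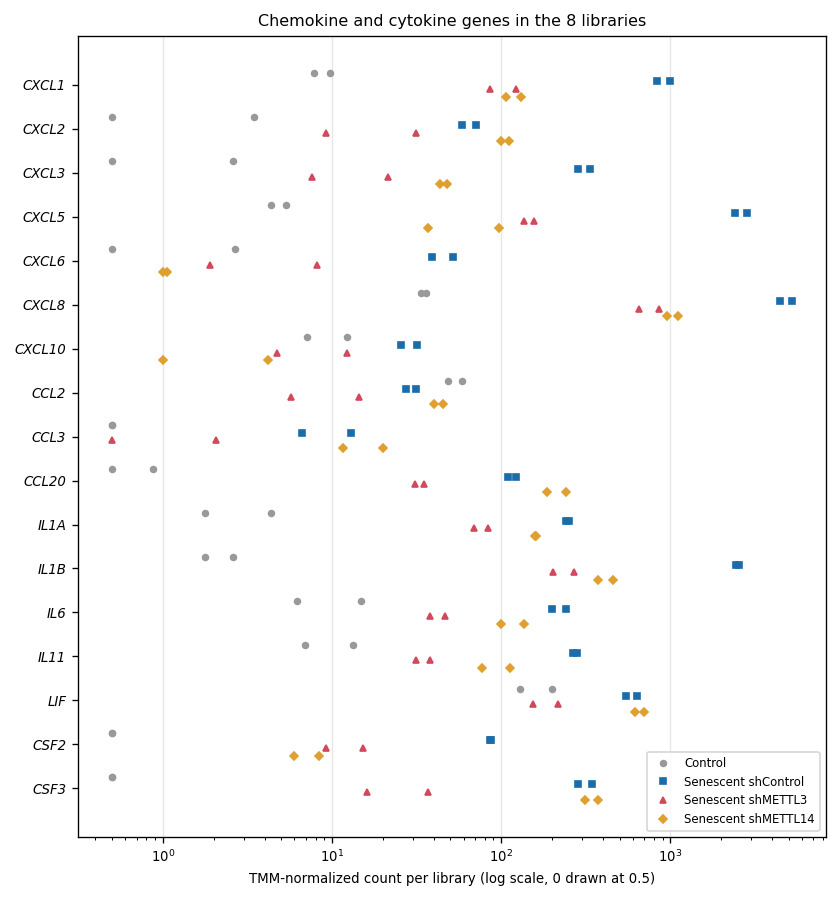
TMM-normalized counts (log axis, a count of 0 drawn at 0.5) of 17 chemokine and cytokine genes in control cells and in senescent cells with shControl, shMETTL3 or shMETTL14, with 1 point per library. The shMETTL3 triangles lie left of the shControl squares in every gene shown, while the shMETTL14 diamonds lie near or right of the squares for CXCL2, CCL2, CCL3, CCL20, LIF and CSF3.

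Of 27 interleukins, colony-stimulating factors and receptors tested, 12 were lower and 2 higher, with a median of -0.70. As with the chemokines, some members pass the filter through the group where they are high. The median is therefore not read against all genes. With 10 counts required in every library 13 were tested, 5 lower and 1 higher, with a median of -0.39. Under library size alone 7 were lower and 6 higher, with a median of -0.08. IL1B, an early cytokine of the SASP, had 2161 and 2189 counts in shControl cells and 261 and 212 in shMETTL3 cells (10.7-fold lower, log2 -3.41, SE 0.16). IL11 went from 237 and 237 counts to 37 and 33, and CSF3, the granulocyte growth factor G-CSF, from 289 and 254 to 36 and 17. CSF2 (GM-CSF) went from 73 and 78 counts to 9 and 16 (log2 -2.80, adjusted p = 1.10e-06). IL6, IL1A and LIF, named after their values were seen, fell by 2.37, 1.69 and 1.67 on the log2 scale. The 2 members called higher were receptor subunits, IL1RAP (log2 1.05) and IL4R (log2 0.43), and none was without shControl replicate 2, while DESeq2 called 1.

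The genes around NF-kappaB itself had smaller values. Of 21 subunits and feedback genes tested, 4 were lower and 1 higher, with a median of -0.21. RELA, the main activating subunit, had 49 and 41 counts in shControl cells and 41 and 35 in shMETTL3 cells (log2 -0.46, adjusted p = 0.248). NFKBIA, the inhibitor that NF-kappaB induces, had 54 and 73 counts and 70 and 32 counts, so its groups overlapped. TNFAIP3 (log2 0.10, adjusted p = 0.737) and ICAM1 (log2 -0.37, adjusted p = 0.0897) did not pass the test either, though ICAM1 passed with a replicate block. NFKB1, which encodes p105 and p50, rose from 223 and 198 counts to 409 and 506 (log2 0.90, adjusted p = 4.13e-05). VCAM1 (log2 -1.62), TNFAIP2 (log2 -0.87), BIRC3 (log2 -0.80) and SOD2 (log2 -0.75) were lower, and 35.1% of the SOD2 row overlaps WTAP. TNFAIP2 and BIRC3 did not pass with the gene length offset described below, and BIRC3 did not pass with a replicate block. The number of the list called lower was 1 with DESeq2 and 1 without shControl replicate 1. Among 14 AP-1 and C/EBP genes, FOSL2, MAFK and JUN were lower and FOSB was higher, and without shMETTL3 replicate 1 the numbers were 5 and 0.

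Proteases and growth factors of the secretory phenotype were split. Of 15 matrix metalloproteinases and their inhibitors tested, 8 were lower and 1 higher, and with 10 counts required in every library 8 were tested and 4 were lower. MMP1, interstitial collagenase, went from 9228 and 8617 counts to 4695 and 5266 (2.09-fold lower, log2 -1.06), and its whole row lies within that of WTAPP1, so these counts cannot be assigned to one of the pair. MMP12, macrophage elastase, had 39 and 28 counts with shControl and none with shMETTL3, which is at least 26.0-fold lower against a floor of 3 counts over both libraries. MMP14, a membrane-bound activator of other metalloproteinases, had 1627 and 1559 counts against 2008 and 1688 (adjusted p = 0.996), and MMP16 was higher (log2 0.53), though not with the gene length offset (log2 0.17, adjusted p = 0.408).

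Of 31 insulin-like growth factor (IGF)-binding proteins and growth factors, 16 were lower and 4 higher, with a median of -0.53. Under library size alone 6 were lower and 11 higher, with a median of 0.10. FGF2 fell from 1581 and 1536 counts to 464 and 606 (3.40-fold). IGFBP3 fell from 92 and 76 counts to 19 and 17, and IGFBP5 from 6156 and 6215 to 3157 and 3074. PDGFC rose in the same cells, from 569 and 581 counts to 1591 and 2156 (2.79-fold, log2 1.48, SE 0.16), as did IGFBP7 (log2 1.16), FGF5 (log2 0.73) and HGF (log2 0.67). PTGS2 (cyclooxygenase-2), which makes prostaglandin precursors, fell from 1434 and 1470 counts to 288 and 317 (5.58-fold, adjusted p = 1.26e-12), and PTGS1 fell from 61 and 89 to 22 and 28. PTGES, the inducible prostaglandin E synthase, had 36 counts summed over the shControl libraries and 3 over the shMETTL3 libraries (ratio 13.95, counting interval 4.41 to 70.8).

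Of 24 glycolysis genes 10 were lower and 1 higher and 13 did not pass, with a median of -0.46. With gene length taken into account 9 were lower and 2 higher, and under scaling by library size alone 2 were lower and 6 higher, with a median of 0.16. HK2 (chr2:75059782-75120481), which phosphorylates glucose in the first step, had 617 and 500 counts in shControl cells and 304 and 299 in shMETTL3 cells, a normalized count of 643 ± 122 against 298 ± 19.8 (SD, n = 2). The fall was 2.16-fold (log2 -1.11, SE 0.14, adjusted p = 2.08e-06), to a level still above the 71 and 62 counts of control cells. ENO2, a neuronal-type enolase, fell by 1.68 on the log2 scale, TPI1 by 0.87 and GPI by 0.81. ALDOA, GAPDH, ENO1, LDHA, HK1 and the lactate exporter SLC16A3 were the other genes called lower, from -0.78 (SLC16A3) to -0.41 (LDHA). SLC2A3, a glucose transporter, was higher (log2 0.54), and PKM and PGK1 did not pass the test.

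In oxidative phosphorylation 7 of 42 genes were lower and 1 higher, and in the NRF2 antioxidant response 7 of 22 were lower, among them NQO1 (log2 -0.89), and 1 was higher. In amino acid synthesis and ATF4 targets 8 of 26 were lower and 2 higher. With one library left out the numbers lower were 3 to 10, 2 to 9 and 3 to 9 in these 3 lists, with the fewest in the last without shControl replicate 1, in the second without shControl replicate 2 and in the first with either of them left out. Under library size alone oxidative phosphorylation had 0 lower and 11 higher, the NRF2 list 1 and 6, and the amino acid list 2 and 7. Of 28 genes of cholesterol and fatty acid synthesis, 8 were higher and 3 lower, and 4 were higher when either shControl library was left out or with DESeq2. MSMO1, a sterol oxidase of cholesterol synthesis, rose from 62 and 75 counts to 178 and 219 (2.49-fold, log2 1.32, SE 0.19), and INSIG1 and SCD rose by 0.89 and 0.81 on the log2 scale. LSS and SCAP fell, by 0.87 and 0.86 on the log2 scale, and without shControl replicate 2 the list had 1 lower in place of 3. The largest values of this list in either direction were those of HSD17B7 (log2 2.64) and PMVK (log2 -2.47).

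Of 48 mitotic and G2/M genes tested, 17 were lower and none higher, and 31 did not pass. No gene of the list was higher at an unadjusted p below 0.05 or with DESeq2 either. The median of the list was -1.29, or -1.26 with the 4 genes that had no count with shMETTL3 at their bound. Many of the 48 passed the filter only through libraries outside this comparison. With the 4 libraries compared 22 were tested and 7 were lower, with a median of -1.11, and with 10 counts required in every library 5 were tested and 1 was lower, with a median of 0.16. None of the 17 reached a mean of 30 counts over the 4 libraries, so those named here were chosen after their values were seen. MKI67, a marker of cycling cells, had 25 and 53 counts in shControl cells and 1 and 0 in shMETTL3 cells, a ratio of 90.7 with a 95% counting interval of 15.8 to 3627. TOP2A, the topoisomerase that untangles chromosomes, had 23 and 26 counts against 3 and 0 (ratio 19.0, interval 6.13 to 95.2). Control cells had 224 and 201 counts at MKI67 and 164 and 145 at TOP2A. These intervals cover counting error only.

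TPX2, a spindle assembly factor, fell from 26 and 34 counts to 8 and 12 (log2 -1.79, adjusted p = 0.000698), and AURKA, a spindle kinase, from 17 and 25 to 9 and 11. The number called was 14 without shControl replicate 1, 4 without shControl replicate 2, 13 when either shMETTL3 library was left out and 9 with DESeq2. Many mitotic promoters carry CCAAT boxes and the cell cycle homology element TTTGAA. In the 250 bases before the start, CCAAT on either strand was in 31 of the 41 tested genes with a RefSeq promoter and TTTGAA in 25, against 32.0% and 13.3% of all promoters and 41.5% and 12.7% of the promoters of tested genes. The windows of MKI67 and TOP2A are shown because both genes are widely used markers of cycling cells, with these motifs in capitals. One CCAAT match of MKI67 overlaps a TTTGAA match, and the TOP2A window holds no TTTGAA.
MKI67 (GRCh38.p14, chr10:128126424-128126573, minus strand): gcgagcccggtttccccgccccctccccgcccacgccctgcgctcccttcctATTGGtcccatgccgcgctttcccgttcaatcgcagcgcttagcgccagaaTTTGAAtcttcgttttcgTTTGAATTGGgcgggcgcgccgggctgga
TOP2A (GRCh38.p14, chr17:40417897-40418046, minus strand): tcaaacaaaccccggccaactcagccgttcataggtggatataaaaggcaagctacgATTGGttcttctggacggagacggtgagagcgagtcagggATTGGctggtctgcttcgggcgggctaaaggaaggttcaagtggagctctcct

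Of 40 replication genes and E2F targets, 6 were lower and 1 higher, beside a background of 11.1% lower. The number lower was 1 without shControl replicate 2 and 11 without shMETTL3 replicate 1. The one that rose was E2F7, a repressor of E2F target genes, from 392 and 381 counts to 1549 and 1715 (3.63-fold, log2 1.86, SE 0.17). LMNB1, the lamin whose loss marks senescent cells and which was named after its values were seen, had 26 counts summed over the shControl libraries and 2 over the shMETTL3 libraries (ratio 15.1, counting interval 3.78 to 131). LMNB2 and LMNA fell by 1.58 and 1.04 on the log2 scale.

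Of 28 p53 targets and inhibitors of cyclin-dependent kinases tested, 11 were higher and none lower (1 was lower at an unadjusted p below 0.05, none with DESeq2), and 17 did not pass. The background for a call in this direction was 12.3% of genes. MDM2, the p53 ubiquitin ligase, rose from 386 and 362 counts to 1054 and 1441, a normalized count of 430 ± 37.8 against 1225 ± 203 (2.85-fold, log2 1.51, SE 0.14). TP53INP1 rose from 71 and 76 counts to 233 and 259, but its row lies within that of NDUFAF6, with which it shares reads. SPATA18 (log2 1.45) and the death receptor FAS (log2 1.13) rose as well. PURPL, a p53-induced long noncoding RNA, was among the 12 largest rises.

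CDKN2B, the inhibitor p15, rose from 141 and 141 counts to 328 and 298 (log2 0.94), and its row lies within that of CDKN2B-AS1. PLK2, a polo-like kinase, rose by 0.99 on the log2 scale. CDKN1A, the inhibitor p21, had 726 and 744 counts in shControl cells and 762 and 642 in shMETTL3 cells (log2 -0.28, adjusted p = 0.169). CDKN2A, which encodes p16, had 50 and 44 counts against 58 and 45 (adjusted p = 0.858). The groups overlapped for both genes in raw counts. After scaling they overlapped for CDKN2A, while CDKN1A was lower in both shMETTL3 libraries than in either shControl library. The number of p53 targets called higher was 7 to 13 when a library was left out, with the fewest without shMETTL3 replicate 2, and it was 12 with gene length taken into account.

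**Figure D3:**
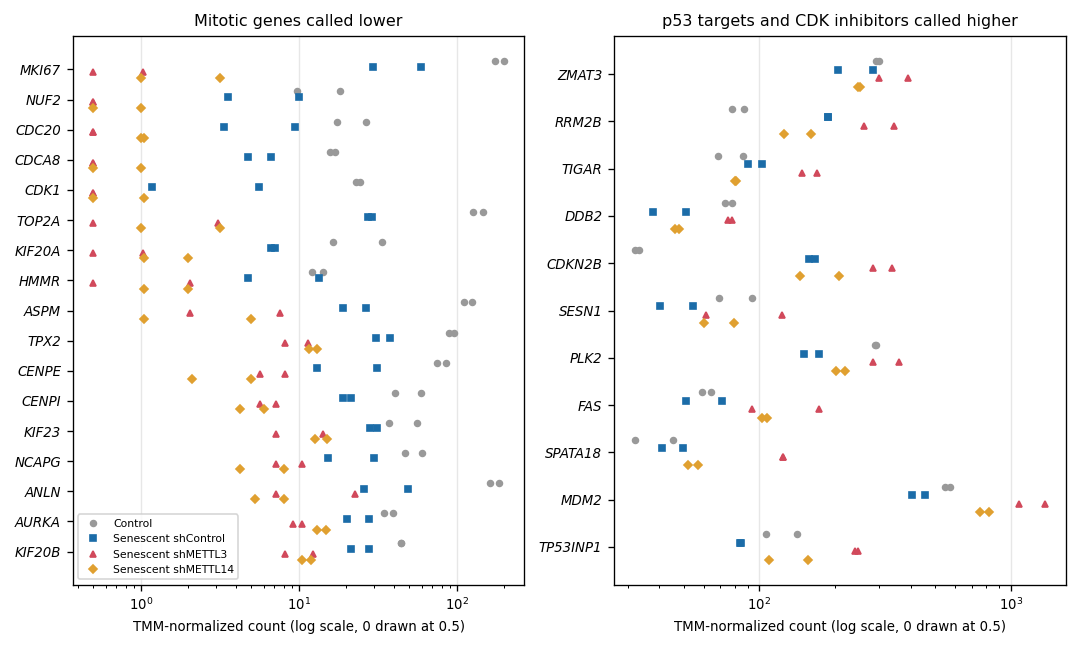
TMM-normalized counts (log axis, a count of 0 drawn at 0.5) of the 17 mitotic genes called lower (left) and the 11 p53 targets and kinase inhibitors called higher (right), in control cells and in senescent cells with shControl, shMETTL3 or shMETTL14, with 1 point per library. For MKI67 and TOP2A the control points lie furthest right, the shControl squares in the middle and the shMETTL3 triangles furthest left beside the shMETTL14 diamonds, and for MDM2 and TP53INP1 the triangles lie furthest right.

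Interferon-stimulated genes had the highest median of the lists, 0.57, with 8 of 30 higher and 1 lower, and 5 were higher without shControl replicate 1. IFI6 rose from 13 and 16 counts to 80 and 72 (4.49-fold, log2 2.17, SE 0.31), and the RNA helicase DDX60 from 18 and 25 to 82 and 140. SP110 (log2 1.38) and TRIM22 (log2 1.21) rose, and SP140L was lower (log2 -0.71). SP140, a nuclear body protein related to both, was the first of the 12 largest rises, from 25 and 33 counts to 190 and 263 (6.68-fold, log2 2.74, SE 0.21, adjusted p = 4.42e-10).

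Among the 12 largest rises, INSC, which orients the spindle, rose from 81 and 70 counts to 499 and 486 (5.61-fold), and FANK1 from 43 and 34 to 217 and 251. A pair of the 12 genes transfers sulfate to glycosaminoglycans. HS3ST3A1, a heparan sulfate 3-O-sulfotransferase, rose from 183 and 170 counts to 1007 and 1117 (5.16-fold, log2 2.37, SE 0.18). CHST11, a chondroitin 4-O-sulfotransferase of 305 kb (chr12:104850692-105155792), rose from 165 and 152 counts to 872 and 825 (4.61-fold, log2 2.20, SE 0.16). Of the 28 genes of heparan and chondroitin sulfation tested, 8 were higher and 3 lower, UST and CHST2 among the latter. With either shControl library left out 5 were higher, without shMETTL3 replicate 1 there were 6 lower, and with the gene length offset 6 were higher.

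EPHA4, an ephrin receptor of 156 kb that was not on the axon guidance list, rose from 160 and 174 counts to 825 and 877 (4.38-fold). Of 32 axon guidance genes, 11 were higher and 3 lower, with a median of 0.52, and 6 were higher and 1 lower without shControl replicate 2. EPHA5 (log2 2.22), EFNB2 (log2 1.87), EFNA5 (log2 0.90) and SEMA5A (log2 0.90) were higher, and the netrin NTN4 (log2 -1.63), EFNB1 (log2 -2.13) and PLXNA1 (log2 -0.85) lower. The 32 genes have a median length of 194 kb, and with gene length taken into account 8 were higher and 6 lower, with a median of 0.14. COL11A1, DIRC3, SLC1A2, DOCK9 and LOC100128993 completed the 12 largest rises, and 12.7% of the DIRC3 row overlaps DIRC3-AS1.

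Of 25 collagen genes, with a median length of 127 kb, 6 were lower and 8 higher. With the gene length offset 8 were lower and 5 higher, and leaving out shControl replicate 2 gave 4 higher. COL6A1, COL6A2 and COL6A3, which encode the chains of collagen VI, all fell, COL6A3 from 8302 and 8735 counts to 5983 and 5553 (log2 -0.78). COL4A1 rose from 1417 and 1563 counts to 3022 and 3120 (log2 0.83), and COL11A1 from 63 and 73 to 332 and 374 (4.46-fold). Of 33 matrix glycoproteins and crosslinkers 10 were lower and 5 higher, with 6 and 2 without shControl replicate 2. The proteoglycan decorin, DCN, fell from 103 and 197 counts to 25 and 21 (7.51-fold, log2 -2.91), and fibronectin, FN1, rose from 9226 and 9659 to 16177 and 15278 (log2 0.52). DCN had 855 and 831 counts in control cells.

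Of 28 contractile and myofibroblast genes 14 were lower and 4 higher, and 8 were lower without shControl replicate 2. TAGLN, a marker of smooth muscle, fell from 79 and 140 counts to 31 and 30 (4.14-fold) with 32.1% of its row shared with LOC100652768, and FLNA and MYL9 fell by 1.04 and 0.99 on the log2 scale. All of the MYL9 row lies within DLGAP4-AS1. The actin-binding protein PALLD rose (log2 0.92). Under library size alone 4 genes of the contractile list were lower and 9 higher, with a median of 0.09. In the NOTCH and WNT lists 8 of 31 were higher, LEF1 (4.17-fold) and MAML3 (3.47-fold) with the largest values, and 5 were lower. Leaving out shControl replicate 2 gave 3 higher and 1 lower. In the TGF-beta and BMP pathway 5 of 31 were lower, led by BMP6 (log2 -2.89), and 6 were higher, led by SMAD1 (log2 1.15), with 3 higher without shControl replicate 2 and 3 lower without shControl replicate 1.

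**Figure D4:**
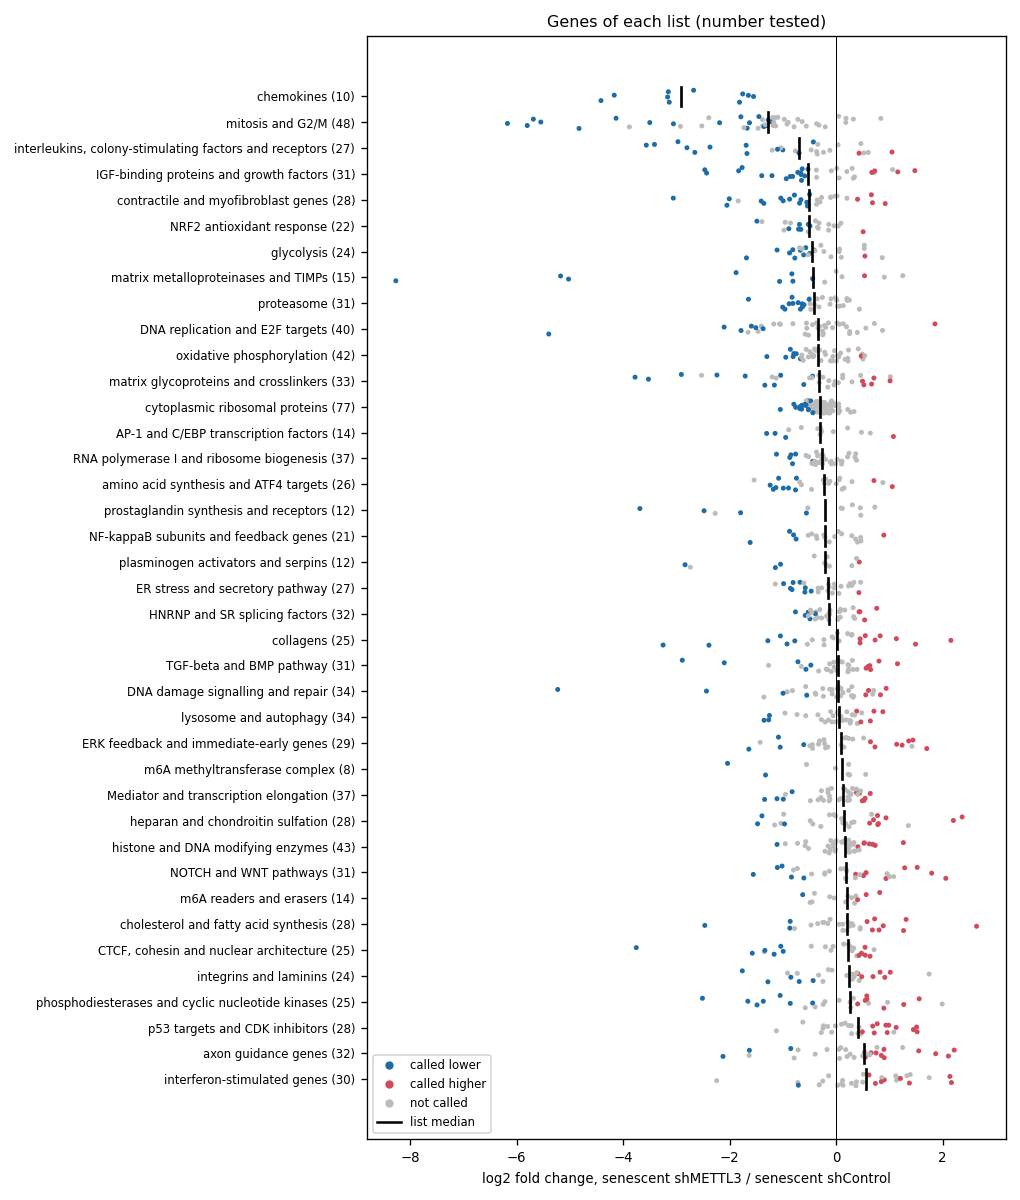
Log2 fold change of each tested gene in 39 gene lists (horizontal axis, shMETTL3 over shControl in senescent cells), ordered by list median (black bar), with genes called lower in blue, called higher in red and not called in grey, and the number tested in parentheses. Chemokines lie furthest left with a median of -2.91, and interferon-stimulated genes furthest right with a median of 0.57. Medians below 0 number 21 of 39 here and 3 of 39 under scaling by library size alone.

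Gene length differed between the falls and the rises, without separating them. The median length was 23.7 kb for genes called lower, 113 kb for genes called higher and 33.3 kb for all genes tested. Of 2400 genes under 10 kb, 352 (14.7%) were lower and 97 (4.04%) higher, with a median log2 fold change of -0.30. Of 589 genes of 300 kb or longer, 47 (7.98%) were lower and 255 (43.3%) higher, with a median of 0.41. The medians of the classes between were -0.20 for 10 to 30 kb, 0.02 for 30 to 100 kb and 0.26 for 100 to 300 kb. Over the 12823 genes, which are not independent replicates, Pearson's r of the log2 fold change with log10 length was 0.23 and Spearman's rho 0.29.

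HDAC9, a histone deacetylase gene of 915 kb, rose from 268 and 298 counts to 641 and 947 (2.40-fold). TRIO, at 367 kb the called gene with most counts in the longest class, rose from 2852 and 3720 counts to 5282 and 6011 (1.48-fold). GLIS3, at 476 kb, fell from 1851 and 1696 to 1351 and 1487 (1.46-fold). Among shorter genes, RPS29 was lower (log2 -0.52) and MALAT1, a long nuclear noncoding RNA, was higher (log2 0.51), and 82.1% of the MALAT1 row overlaps TALAM1.

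Per library, genes of 300 kb or longer took 10.8% and 10.9% of the counts of tested genes with shControl, 13.9% and 14.98% with shMETTL3, 10.6% and 11.4% with shMETTL14 and 13.1% and 13.5% in control cells. Genes under 10 kb took 13.5% and 13.5% with shControl, 11.6% and 10.4% with shMETTL3, 17.2% and 15.8% with shMETTL14 and 11.5% and 11.5% in control cells. The shMETTL3 libraries therefore lay on the side of the control cells in both classes, with replicate 2 further out than replicate 1. The difference between the median log2 fold change of genes of 100 kb or longer and that of genes under 10 kb was 0.58, and it was 0.36 without shMETTL3 replicate 2 and 0.82 without shMETTL3 replicate 1. With 2 libraries against 2, an exact two-sided permutation test cannot give a p below 0.333.

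**Figure D5:**
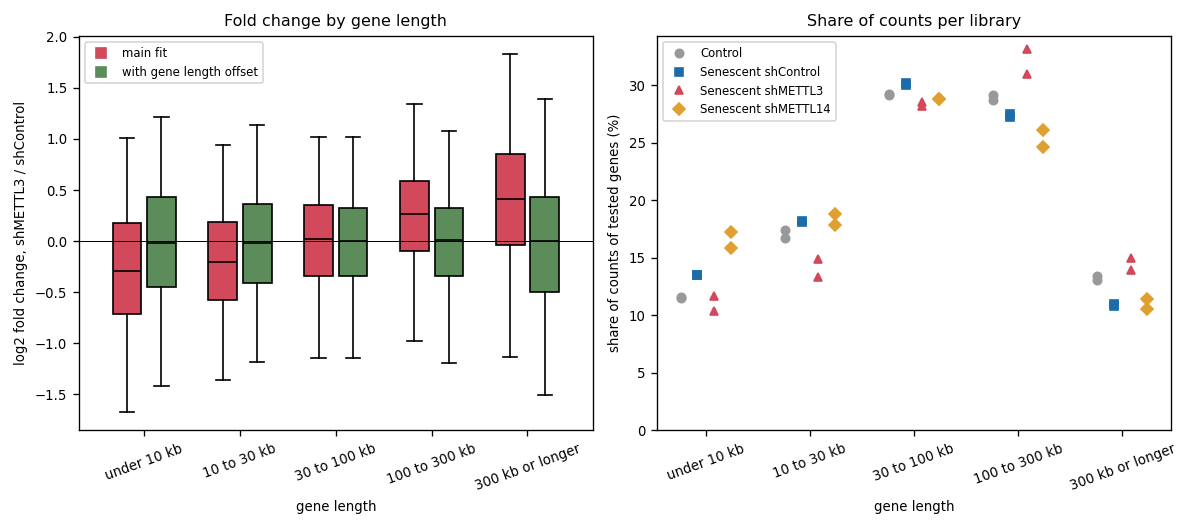
Left, log2 fold change (shMETTL3 over shControl) in 5 classes of gene length, with boxes from the 25th to the 75th percentile, a line at the median and whiskers at the 5th and 95th percentiles, before (red) and after (green) an offset for gene length. Right, share of the counts of tested genes (%) in each class, with 1 point per library. The red medians rise from -0.30 under 10 kb to 0.41 at 300 kb or longer, and the green medians lie near 0.

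To take gene length into account, a smooth curve of each library's deviation against log10 length was entered as an offset, and the genes were tested again. This gave 1263 lower (9.85%) and 1218 higher (9.5%). Of the genes called without the offset, 1029 of 1418 were also lower and 1043 of 1573 also higher with it. All 24 of the largest falls and rises passed under the offset as well, from -4.93 for MMP3 to 2.61 for SP140.

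The effect of the offset differed between lists. Of 77 cytoplasmic ribosomal protein genes, with a median length of 4.68 kb, 17 were lower and none higher without the offset (1 higher at an unadjusted p below 0.05, none with DESeq2), and 3 were lower and 2 higher with it, the 3 being among the 17. Under library size alone the direction turned, with 0 lower and 17 higher. Leaving out one library moved the 17 to 8 without shControl replicate 1, 5 without shControl replicate 2, 35 without shMETTL3 replicate 1 and 8 without shMETTL3 replicate 2. Of 31 proteasome genes 12 were lower without the offset and 6 with it, and PSMB6 (log2 -1.65) had the largest fall. Under library size alone 1 proteasome gene was lower and 10 were higher, with a median of 0.22. The proteasome count ran from 5, without shControl replicate 1, to 15, without shMETTL3 replicate 1. For 42 oxidative phosphorylation genes the numbers lower were 7 and 5.

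Of the genes called without the offset, all 10 chemokine genes were also lower with it, with a list median of -2.57, as were 14 of 17 mitotic genes and 12 of 14 contractile genes. All 8 interferon-stimulated genes and all 11 p53 targets called higher were higher with it as well. In the CTCF, cohesin and nuclear architecture list 5 of 25 genes were higher without the offset, STAG1, STAG2, HMGA2 and NIPBL among them, and 0 with it, whereas 6 were lower in both fits. At an unadjusted p below 0.05 the offset fit had 3 of these 25 higher, and without the offset DESeq2 called 3 and leaving out shControl replicate 2 gave 1. Of 43 histone and DNA modifying enzymes 7 were higher without the offset, HDAC9 and ARID1B with the largest log2 values of 1.26 and 0.74, and 3 with it, while 4 were higher without the offset when either shControl library was left out.

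The shMETTL14 libraries were compared with the shMETTL3 libraries, and both knockdowns share the same shControl libraries. Tested directly, 2394 genes (18.7%) were lower and 2113 (16.5%) higher with shMETTL14 than with shMETTL3. METTL14 had 18 and 14 counts with shMETTL14 (log2 -0.86 against shControl, adjusted p = 0.0763). The 12 largest falls and rises were chosen for their shMETTL3 values, which favours less extreme values with shMETTL14, so their values with shMETTL14 are given as a description with no test. CSF3 had 374 and 296 counts with shMETTL14 and SERPINB2 had 2141 and 1630, each near its shControl counts. CXCL1 had 131 and 102 counts, IL1B 459 and 356, MMP10 8 and 5 and CEMIP 10 and 32, all below both shControl libraries.

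MMP3 had 604 and 505 counts with shMETTL14, above its shMETTL3 counts and far below shControl. CXCL5 and PDE3A had fewer counts with shMETTL14 than with shMETTL3, at 37 and 92 counts and at 10 and 10 counts. Among the rises, INSC (54 and 132 counts), EPHA4 (131 and 239), SLC1A2 (33 and 50) and COL11A1 (62 and 111) were near shControl counts with shMETTL14. SP140 (190 and 175), DIRC3 (152 and 151), PURPL (370 and 312) and LOC100128993 (316 and 300) were above both shControl libraries with shMETTL14 too. HK2, which the study picked as its example from these libraries, was lower with shMETTL14, at 209 and 214 counts, than with shMETTL3 (log2 -0.46, adjusted p = 0.0214).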

How the data were processed

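fastGRO-seq libraries of IMR90 cells were analysed from the table of counts per gene that the authors deposited, in which counts are not normalized. Per the study's methods and the submitters' processing notes, reads were aligned with STAR to hg19, counted over gene bodies with HOMER, and made into tracks with deepTools 3.3. All columns were used, and every row named a gene. The count tests used edgeR 4.0.16 in R 4.3.3 (TMM normalization, quasi-likelihood test, all 8 libraries in 1 fit, Benjamini-Hochberg adjustment), with genes kept by a minimum count of 10, ribosomal RNA rows included in library sizes. Genes without counts were set against a floor of 3 counts over a group's libraries. Gene length entered as an offset from a lowess curve with a span of 0.3. In a test on simulated data for this contrast, 126 of 194 changed genes were called in the right direction and 2 unchanged genes were called among 12366 tested. Apart from the changed genes, the simulated libraries shared their mean counts and a common spread. The real libraries did not, and their shMETTL3 replicates differed most, so these numbers are not error rates for the real data.

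Named were METTL3, METTL14 and HK2, the 12 largest falls and rises with a mean of 100 counts or more, up to 4 called genes of each list and direction with a mean of 30 counts or more, and the most counted called genes of each length class. Further genes were picked once their values were known, among them the low-count chemokines and mitotic genes, RELA, NFKBIA, TNFAIP3, ICAM1, CDKN1A, CDKN2A, MMP14, HK1, PKM, PGK1 and LMNB1. The gene lists and comparisons were chosen with earlier results of these data known. Alternatives were DESeq2 1.42.0, other scalings, filters and thresholds, a replicate block, and each library left out. Promoters came from RefSeq (GRCh38.p14), of which 9792 matched the 12823 genes tested. Hairpin sequences and the spike-in were not used here. A few genes are not reported here.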

Additional observations from a re-analysis of the deposited data

How the results depend on the processing

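The numbers of genes lower and higher, 1418 and 1573, were 712 and 957 with DESeq2, 342 and 5285 with scaling by library size alone, 772 and 964 at an adjusted p below 0.01, and 688 and 595 with an absolute log2 fold change of 1 or more also required. Leaving out 1 library gave 707 to 2044 lower and 769 to 1929 higher. The share of calls that were higher was 52.6%, and 93.9% under library size alone. A fit of only the 4 libraries compared gave 1082 lower and 1262 higher. The difference in median log2 fold change between genes of 100 kb or longer and genes under 10 kb, 0.58, was 0.31 with no filter, 0.024 with the gene length offset, which removes it by construction, and 0.029 with offset and replicate block together, an alternative chosen after seeing the data. It ran from 0.36 to 0.82 with 1 library left out. Of the 24 largest changes, 17 passed the threshold between the knockdowns, a count that their choice by shMETTL3 values inflates and that supports nothing here, and 11 did with 10 counts required in every library, where fewer genes were tested. The fold change of METTL3 kept its direction and its call throughout.

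Under library size alone the direction turned for 13 genes called lower, to 0.0041 for DUSP6, 0.064 for PTGES3, 0.064 for PRKDC, 0.033 for LTBP2, 0.15 for GREM1, 0.011 for JAG1, 0.025 for HNRNPF, 0.10 for HNRNPU, 0.11 for HNRNPL, 0.085 for RPS29, 0.079 for GLIS3, 0.038 for ENO1 and 0.21 for LDHA on the log2 scale, as the median of all genes rose. Over 261 named genes and all alternatives, 3701 of 4128 values kept direction and call, 408 lost the call and 6 gained it. The 24 largest changes kept both in all 371 values. Of 624 list medians, 170 moved by more than the spread between replicates, and the cause was not tested.

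With the replicate block, 1429 genes were lower and 1563 higher, and METTL3 had a log2 fold change of -2.02. Deviations of same-numbered shControl and shMETTL3 libraries correlated at -0.04 over genes, so the libraries share only a number. The block changed 2 of 261 calls, BIRC3 (adjusted p = 0.0546) and ICAM1 (adjusted p = 0.0452). The depth limits the low genes most, since all genes outside ribosomal RNA shared 1513930 to 2048475 counts per library, and the shMETTL3 replicates differed by more than counting noise (chi-square per degree of freedom 4.78, against 1.49 for shControl).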

Other observations

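Small RNA genes, which were left out of the named changes, were mostly higher where they passed. Of 96 rows under 400 bases tested, 33 were higher and 1 lower, with a median of 0.77 on the log2 scale, and of 59 small nucleolar RNA genes 22 were higher and 1 lower. Small rows took 1.78% and 1.08% of the counts outside ribosomal RNA with shMETTL3 and 1.12% and 1.09% with shControl, so the summed groups overlapped.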
